A study of Mus musculus with 14 samples.

Results

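The 32 genes described here encode the machinery that folds proteins in the endoplasmic reticulum, checks the products and sends failures to be degraded. They were chosen by gene name, and all 32 were listed among the 23642 symbols used in one set of libraries and the 54540 used in the other. RNA was sequenced in 12 libraries from BFU-E, the burst-forming progenitors at the start of the red cell line, taken from C57BL/6 mouse fetal liver and cultured in StemSpan SFEM II medium. In the OB set, 3 libraries had compound OB at 100 µM and 3 had the solvent DMSO. In the PD set, 3 libraries had compound PD at 3 nM and 3 others had DMSO. Genotype, embryo age, time in culture and the source of each replicate are not given in the labels, so p-values measure the spread between libraries, which may be technical. Values are FPKM, the fragments assigned to a gene, scaled by its length and by the size of the library.

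Proteins enter the endoplasmic reticulum through the Sec61 channel, are glycosylated there, and fold with the help of chaperones and of enzymes that form disulfide bonds. When unfolded proteins build up, the membrane sensors IRE1 (Ern1), PERK (Eif2ak3) and ATF6 start the unfolded protein response. ATF6 and the spliced form of XBP1 then switch on chaperone and degradation genes, while PERK slows translation and favours ATF4. Erythroid progenitors make many membrane and receptor proteins by this route before they turn to haemoglobin, which is made in the cytosol.

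ATF6 and XBP1 act through a short promoter sequence, the endoplasmic reticulum stress element, and it is shown here because some of the members share it. The members were chosen as genes of the pathway that ATF6 and XBP1 act on, so its share among them is no separate finding. The window from 250 bases before to 50 bases after the RefSeq start (GRCm38.p6) was found for 26 of the 32 members. The element, CCAAT and CCACG with any 9 letters between them on either strand, was in 9 of those 26 (34.6%), against 0.137% of 27025 genes with such a window. The 9 were Hspa5, Hsp90b1, Calr, Canx, Creld2, Dnajc3, Ero1lb, Pdia6 and Syvn1. A second form, ATTGG and CCACG with any 1 letter between them, was in 2 members (Dnajb11 and Herpud1) and in 0.0444% of genes. The cAMP response element TGACGTCA, the site that CREB binds, was in 0 of the 26 and in 2.03% of genes. A match describes letters and is not proof of binding. Each run below reads 5′ to 3′ on the strand of the element, with its fixed letters in capitals.
Hspa5, chr2:34772013-34772055, plus strand: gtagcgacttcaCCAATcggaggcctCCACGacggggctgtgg
Hsp90b1, chr10:86705521-86705563, plus strand: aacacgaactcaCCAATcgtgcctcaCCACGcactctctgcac
Hsp90b1, chr10:86705626-86705668, minus strand: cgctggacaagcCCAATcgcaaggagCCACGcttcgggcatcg
Calr, chr8:84847063-84847105, plus strand: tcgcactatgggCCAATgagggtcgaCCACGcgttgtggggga
Pdia6, chr12:17266479-17266521, plus strand: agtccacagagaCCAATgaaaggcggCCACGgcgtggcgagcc
Dnajc3, chr14:118937815-118937857, plus strand: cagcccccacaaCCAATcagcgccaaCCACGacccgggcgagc
Syvn1, chr19:6046520-6046562, plus strand: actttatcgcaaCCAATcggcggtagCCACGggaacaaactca
Herpud1, chr8:94386365-94386399, plus strand: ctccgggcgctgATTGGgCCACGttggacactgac

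Early erythroid markers were found in every library, with markers of other blood cells beside them. All 8 early erythroid markers (among them Gata1, Klf1, Epor and Kit) were at 1 FPKM or more in every library. They summed to 1466 to 1577.5 FPKM in the OB set and to 1144 to 1704 in the PD set. Hepatocyte markers summed to at most 2.70 FPKM, and Ttr was listed at 0 in every library of both sets. Granulocyte precursor markers summed to 36.4 to 174 in the OB set, and to 2122 to 3536 with DMSO and 4861 to 5098 with compound PD in the PD set. In every library of the PD set the erythroid sum was below the granulocyte sum and below the megakaryocyte sum (2418 or more). Sums over different lists do not measure shares of cells. OB DMSO replicate 2 stood apart in Rn45s, the ribosomal RNA precursor, at 12380 against 175 to 955 in the other 5 libraries of its set. Replicate 1 of the OB set stood apart in both arms: 59.1% of genes had both replicate 1 libraries above or below the other 4.

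In the untreated cells the members spanned a wide range of levels per length of transcript. With DMSO in the OB set the order began with calreticulin (Calr, 360 ± 72.1 FPKM; SD, n = 3), the HSP70 chaperone BiP (Hspa5, 276 ± 18.7), the channel subunit Sec61b (254 ± 25.4) and the HSP90 chaperone Hsp90b1 (195 ± 20.3). The first 2 of these overlapped within their SDs, as did the second and the third. By their means the same 4 genes led in the same order in the PD set, at 414 ± 23.7, 382 ± 59.9, 185 ± 20.0 and 184 ± 25.6. There Calr and Hspa5 overlapped within their SDs, as did Sec61b and Hsp90b1. Pdia3, next at 166 ± 24.1, overlapped both Sec61b and Hsp90b1, so the order among these genes is not resolved. The order ended in both sets with the sensor PERK (Eif2ak3, 3.81 ± 0.167 and 5.41 ± 0.920) and with Ero1lb, the second disulfide oxidase. Ero1lb was at 0.42 ± 0.0917 in the OB set, under the mean of 1 FPKM required for testing, and at 2.26 ± 0.817 in the PD set. The other oxidase, Ero1l, was at 81.3 ± 30.7 and 75.3 ± 12.4. The 2 sets were processed separately and list different numbers of genes, so levels across them are set side by side only. The PD set was 3.10 times the OB set for Edem1, 2.91 for Manf, 2.48 for Ern1, 2.47 for Dnajb9 and 2.36 for Xbp1 in DMSO, and 0.588 times for Ostc.

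With compound OB the members stayed near their DMSO levels and none passed the test. Of 31 members tested, 0 were called higher or lower at an adjusted p under 0.05 (limma on log2(FPKM + 1), Benjamini-Hochberg over 10104 genes, percent called 0 in either direction). At an unadjusted p under 0.05, 3 members were higher and 0 lower, against 2.45% of all genes higher and 1.24% lower. The median log2 fold change of the members was 0.04, against 0.03 for all genes, with 19 of 31 above 0, beside 58.7% of all genes (3.69% of all genes were under 0.05 in either direction). For 29 of the 31, the 95% interval of the log2 fold change lay within 2-fold in either direction; the exceptions were Ero1l and Syvn1.

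The 3 members with an unadjusted p under 0.05 were the sensor Ern1 and the degradation genes Herpud1 and Sel1l, and they were also the 3 whose compound OB libraries all lay above all DMSO libraries. Of all genes, 5.32% had that pattern upward and 3.41% downward. Ern1 encodes IRE1, the kinase and RNase that splices Xbp1 mRNA, and lies on chromosome 11, 106397620 to 106487796 (GRCm38.p6). It measured 6.48, 6.70 and 8.26 FPKM with DMSO and 10.71, 12.56 and 11.26 with compound OB. The lowest compound library was thus above the highest DMSO library, and the log2 fold change was 0.62 (SE 0.13, 95% interval 0.32 to 0.93; adjusted p = 0.589).

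The labels state no pairs in the OB set, but its same-numbered libraries deviated together (correlations 0.831, 0.434 and 0.652). Unlike-numbered libraries of replicates 2 and 3 did so too (0.413 and 0.327), while those with replicate 1 were at −0.712 to −0.536. The numbers thus set replicate 1 apart more than they tell replicates 2 and 3 from each other. With the number as a block, 7 genes were called over the whole table, 4 higher (0.0396%) and 3 lower (0.0297%), and still 0 members. The adjusted p of Ern1 was then 0.131. With the block and median-ratio scaling together it was called (log2 0.60, adjusted p = 0.0243), the only member among 95 genes called higher and 53 lower.

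Herpud1, a membrane protein that helps bring substrates to the degradation ligase, lies on chromosome 8, 94386429 to 94395371. It measured 24.58, 25.43 and 27.65 with DMSO and 30.55, 33.09 and 32.21 with compound OB (log2 0.29, SE 0.09, 95% interval 0.07 to 0.51; adjusted p = 1.00). Sel1l, the partner that holds that ligase in place, lies on chromosome 12, 91806043 to 91849157. It measured 13.64, 11.66 and 12.43 with DMSO and 15.38, 16.09 and 15.03 with compound OB (log2 0.28, SE 0.10, 95% interval 0.04 to 0.53; adjusted p = 1.00). In both of these degradation genes the arms did not overlap. Syvn1, the ligase itself, had an interval of −0.62 to 1.09, because replicate 1 was at 22.75 with DMSO and 21.08 with compound OB against 9.17 to 15.04 in the other 4 libraries.

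The chaperones and disulfide enzymes had log2 fold changes near 0 with compound OB. BiP (Hspa5), the chaperone whose induction is the usual sign of endoplasmic reticulum stress, measured 263.06, 268.29 and 297.77 with DMSO and 245.75, 280.09 and 301.44 with compound OB. The arms overlapped fully, and the log2 fold change was −0.01 (SE 0.10, 95% interval −0.25 to 0.24; adjusted p = 1.00). Hsp90b1, its HSP90 partner, measured 172.18, 200.48 and 211.65 against 157.50, 194.18 and 206.37 (log2 −0.07, adjusted p = 1.00). In that gene replicate 1 was the lowest library of each arm. Dnajc3, a BiP co-chaperone that also inhibits PERK, measured 9.83, 13.20 and 13.80 against 9.63, 13.48 and 14.16, so that same-numbered libraries differed by −0.03 to 0.03 on the log2 scale. The 9 chaperones and co-chaperones ran from log2 −0.07 to 0.26, with a median of 0.04. The 5 tested disulfide enzymes ran from −0.22 to 0.09, with a median of 0.00. Pdia4 measured 29.01, 33.28 and 40.03 against 27.60, 35.91 and 38.13, and Pdia6 99.23, 91.08 and 107.52 against 93.18, 100.34 and 106.71. Both enzymes overlapped between arms.

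The other sensors and Xbp1 did not follow Ern1. Atf6 measured 8.39, 9.11 and 9.92 with DMSO and 8.80, 10.41 and 9.93 with compound OB (log2 0.08, adjusted p = 1.00). Eif2ak3, the PERK kinase, measured 3.84, 3.96 and 3.63 against 3.74, 3.96 and 3.69 (log2 −0.00, 95% interval −0.26 to 0.25). Xbp1 measured 26.85, 20.50 and 23.27 against 25.65, 25.03 and 24.78 (log2 0.10, adjusted p = 1.00). All 3 overlapped between arms. FPKM per gene does not separate spliced from unspliced Xbp1, so the activity of IRE1 is not measured here. Among the 7 degradation genes the median was 0.12, and among the 4 translocon and glycosylation genes −0.03. Sec61a1, the channel itself, measured 82.68, 72.76 and 76.96 against 82.55, 88.71 and 86.66 (log2 0.15, adjusted p = 1.00). Ostc, a subunit of the oligosaccharyltransferase that adds N-linked sugars, measured 116.75, 124.44 and 138.35 against 114.84, 124.60 and 135.54.

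**Figure D1:**
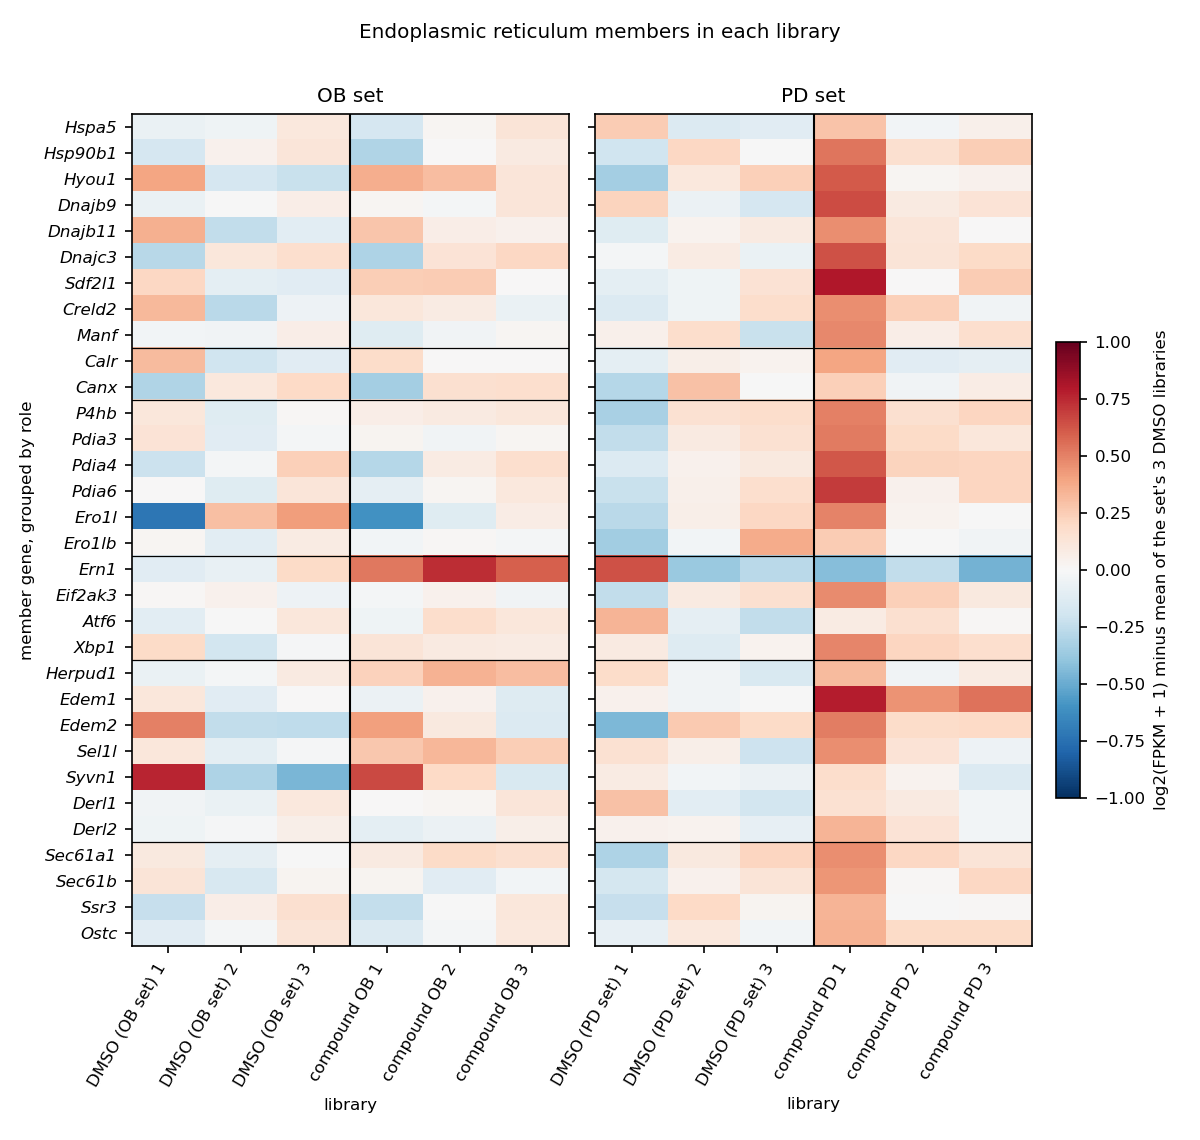
Each row is a member, grouped by role with thin lines, and each column a library; the colour is log2(FPKM + 1) minus the mean of the 3 DMSO libraries of the same set. In the OB set the replicate 1 columns of both arms resemble each other and the Ern1 row is above DMSO with compound OB; in the PD set the compound PD replicate 1 column is the highest of its 6 libraries for 27 of 32 members.

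In the OB set replicate 1 stood apart in both arms, and for many members so did replicate 3. In 18 of 31 members (58.1%, near the 59.1% of all genes) both replicate 1 libraries lay apart from the other 4. They were high for 9 members (Calr, Creld2, Dnajb11, Edem2, Hyou1, Pdia3, Sec61b, Syvn1 and Xbp1) and low for 9 (Atf6, Canx, Dnajc3, Ero1l, Hsp90b1, Hspa5, Ostc, Pdia4 and Ssr3). Both replicate 3 libraries lay apart in 13 members (41.9%, against 18.8% of all genes), of which 12 were high: Canx, Derl1, Derl2, Dnajb9, Dnajc3, Hsp90b1, Hspa5, Manf, Ostc, Pdia4, Pdia6 and Ssr3. Both replicate 2 libraries lay apart in only 3 members (9.68%, against 9.65% of all genes). Ero1l, the main disulfide oxidase, was at 46.16 and 49.94 in the replicate 1 libraries and at 70.31 to 102.73 in the others. Cdkn1a, the cell cycle inhibitor p21, moved with the same libraries, at 321 and 227 in replicate 1 and 67.5 to 81.9 in the others. So did granulocyte precursor markers, which summed to 174 and 141 in replicate 1 and 36.4 to 52.0 in the others, and megakaryocyte markers, at 1400.0 and 1001 against 492 to 639. The part of these in the result was not tested. Without replicate 1 of both arms, an alternative chosen after seeing the data, 5 members were called higher (Ern1, Herpud1, Hyou1, Sel1l and Syvn1) and Ero1l lower, among 15.4% of all genes called higher and 2.43% lower. The members' 5 of 31 was thus near the background of that fit, which had 2 libraries in each arm.

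With compound PD, 31 of 32 members were above DMSO on average and none passed the test. The median log2 fold change of the members was 0.22, against 0.06 for all genes tested, of which 59.1% were above 0. No member was called at an adjusted p under 0.05 (limma over 11887 genes; 0.00841% called higher and 0.0168% lower). At an unadjusted p under 0.05, 1 member was higher and 0 lower, against 9.04% and 1.62% of all genes (10.7% in either direction). With the replicate number as a block, 0.303% of genes were called higher and 0.0421% lower, and 0 members. For all 32 members the 95% interval lay within 2-fold in either direction. With median-ratio scaling 26 of 32 members were above 0 (median 0.13, against −0.03 for all genes), and with quantile normalization 28 (median 0.18, against −0.03).

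One library carried much of this difference. Compound PD replicate 1 was the highest of the 6 libraries for 27 of 32 members (84.4%), against 28.9% of all genes. Its median over the members was log2 0.47 above the DMSO mean, while compound PD replicates 2 and 3 were at 0.11 and 0.09. For all genes these 3 libraries were at 0.11, 0.04 and 0.03. By role, replicate 1 was at 0.54 for chaperones, 0.51 for disulfide enzymes, 0.40 for translocon and glycosylation genes, 0.34 for degradation genes, 0.32 for calnexin with calreticulin and 0.28 for the sensors with Xbp1. Without it the median of the members was 0.10, against 0.03 for all genes, with 28 of 32 above 0. PD DMSO replicate 1 was the lowest of the 6 for 18 members (56.2%), against 49.6% of all genes. Without replicate 1 of both arms the median of the members was 0.04, against −0.05 for all genes, and 23 of 32 were above 0.

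Some markers of other blood cells were also highest in compound PD replicate 1; the 4 named here were chosen after their values were seen. Prtn3 and Mpo, enzymes of the primary granules of early granulocytes, were at 700 and 933 there, against 262 to 386 and 422 to 560 in the other 5 libraries. The mast cell protease Cma1 was at 1389 against 346 to 797, and the platelet chemokine Pf4 at 6017 against 1792 to 3717. For Cma1 and Pf4, PD DMSO replicate 1 was also the highest of its arm (797 against 346 and 409, and 3607 against 1833 and 1792). For Prtn3 and Mpo it was the lowest of its arm (262 and 428). Of the 7 mast cell and basophil markers tested, 5 were above 0 with compound PD and 2 below: Mcpt8, at 2.63, 27.96 and 31.05 with DMSO and 5.42, 17.67 and 14.97 with the compound, and Prss34, at 1.30, 31.79 and 31.45 against 2.60, 2.96 and 2.37. The 8 mast cell and basophil markers summed to 857 to 1622 with DMSO and 1422 to 2872 with compound PD, and the 8 megakaryocyte markers to 2418 to 4755 and 4431 to 7786. In both sums replicate 1 was the highest library of each arm. The granulocyte sum did not overlap between the arms, as given above, but was not highest in replicate 1 (4861, against 5098 and 5081). Of the 8 macrophage markers, C1qa, C1qb, Mrc1, Cd5l and Marco were under 1 FPKM in every library of the PD set. The 3 that could be tested were above 0 with compound PD (median log2 0.55), and the list summed to 12.1 to 23.0 with DMSO and 23.8 to 30.7 with the compound. In bulk RNA, more cells of a type and more RNA per cell cannot be told apart. The part of these cells in the members' values was not tested.

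**Figure D2:**
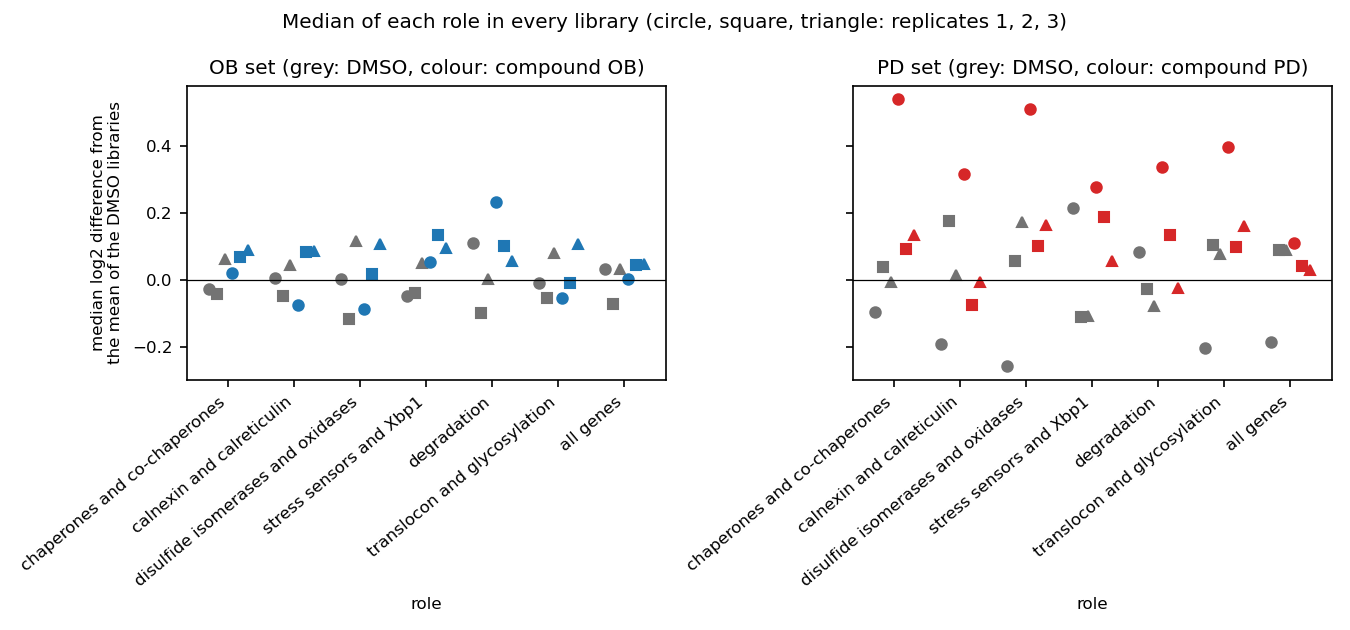
Each point is a library and gives the median, over the tested members of a role, of log2(FPKM + 1) minus the mean of the 3 DMSO libraries of its set; grey is DMSO and colour is the compound. In the PD set the circle of compound PD replicate 1 is above the other 5 libraries in all 6 roles, from 0.28 to 0.54, while in the OB set no role reaches 0.3.

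Edem1 was the member that differed most with compound PD. It encodes a mannosidase-like lectin that picks out misfolded glycoproteins for degradation, a known XBP1 target, and lies on chromosome 6, 108824045 to 108859356. It measured 32.60, 30.74 and 31.46 with DMSO and 55.24, 43.52 and 46.45 with compound PD. The DMSO libraries lay close together and every compound library was above them, a pattern found upward in 13.1% of all genes and downward in 3.72%. The log2 fold change was 0.59 (SE 0.16, 95% interval 0.24 to 0.95; adjusted p = 0.218). Without compound PD replicate 1 it was 0.50 (adjusted p = 0.680). In the OB set Edem1 measured 11.06, 9.32 and 10.20 with DMSO and 9.75, 10.53 and 9.23 with the compound (log2 −0.05).

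Besides Edem1, the arms did not overlap in 4 members of the PD set. Pdia4, a disulfide isomerase, measured 26.30, 29.95 and 31.12 with DMSO and 45.22, 33.99 and 33.88 with compound PD (log2 0.35, 95% interval −0.04 to 0.75; adjusted p = 0.535). Xbp1 measured 59.12, 50.67 and 56.72 against 78.20, 64.40 and 62.36 (log2 0.29, 95% interval −0.07 to 0.65; adjusted p = 0.594). The margin between the arms of each was small beside the height of compound PD replicate 1. Dnajc3 measured 15.24, 16.37 and 14.73 against 24.55, 16.98 and 17.80 (log2 0.32, adjusted p = 0.647). Ostc measured 70.03, 80.10 and 72.93 against 94.91, 84.75 and 84.83 (log2 0.24, adjusted p = 0.646). The 5 members were 15.6% of 32, beside the 13.1% of all genes.

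The remaining chaperones and enzymes overlapped between the arms. Hspa5 measured 450.60, 343.61 and 350.34 with DMSO and 462.67, 370.82 and 393.04 with compound PD (log2 0.10, SE 0.16, 95% interval −0.25 to 0.46; adjusted p = 0.922). Both replicate 1 libraries were the highest of their arms for this gene. Hsp90b1 measured 159.24, 210.36 and 181.62 against 265.54, 203.77 and 216.64 (log2 0.31, adjusted p = 0.580). Sdf2l1, a partner of BiP and its co-chaperones, measured 38.65, 40.02 and 45.68 against 72.59, 41.46 and 49.37 (log2 0.35, adjusted p = 0.664). Its difference rested mostly on replicate 1. Pdia6 measured 78.46, 95.38 and 103.44 against 149.83, 94.79 and 106.95 (log2 0.32, adjusted p = 0.680). Sec61a1 measured 51.37, 68.45 and 74.25 against 88.60, 73.77 and 70.16 (log2 0.27, adjusted p = 0.725). The 9 chaperones ran from log2 0.10 to 0.35 and the 6 disulfide enzymes from 0.07 to 0.35.

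The sensors did not all share the pattern of compound PD replicate 1: Eif2ak3 was highest there, and Ern1 and Atf6 were highest in PD DMSO replicate 1. Ern1 measured 26.65, 12.69 and 13.74 with DMSO and 12.20, 13.96 and 11.77 with compound PD (log2 −0.38, SE 0.27; adjusted p = 0.740), and it was the only member below 0. The value rests on PD DMSO replicate 1, without which it was −0.06. Atf6 measured 16.62, 12.08 and 10.76 against 13.75, 14.57 and 13.08 (log2 0.08, adjusted p = 0.959). Eif2ak3 measured 4.37, 5.76 and 6.11 against 7.82, 6.52 and 5.83 (log2 0.27, adjusted p = 0.788). Both overlapped between arms. The degradation genes that were apart in the OB set overlapped here: Herpud1 measured 54.65, 46.62 and 43.08 against 59.80, 46.71 and 50.83 (log2 0.12), and Sel1l 21.47, 20.01 and 16.53 against 26.94, 21.18 and 18.56 (log2 0.18).

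**Figure D3:**
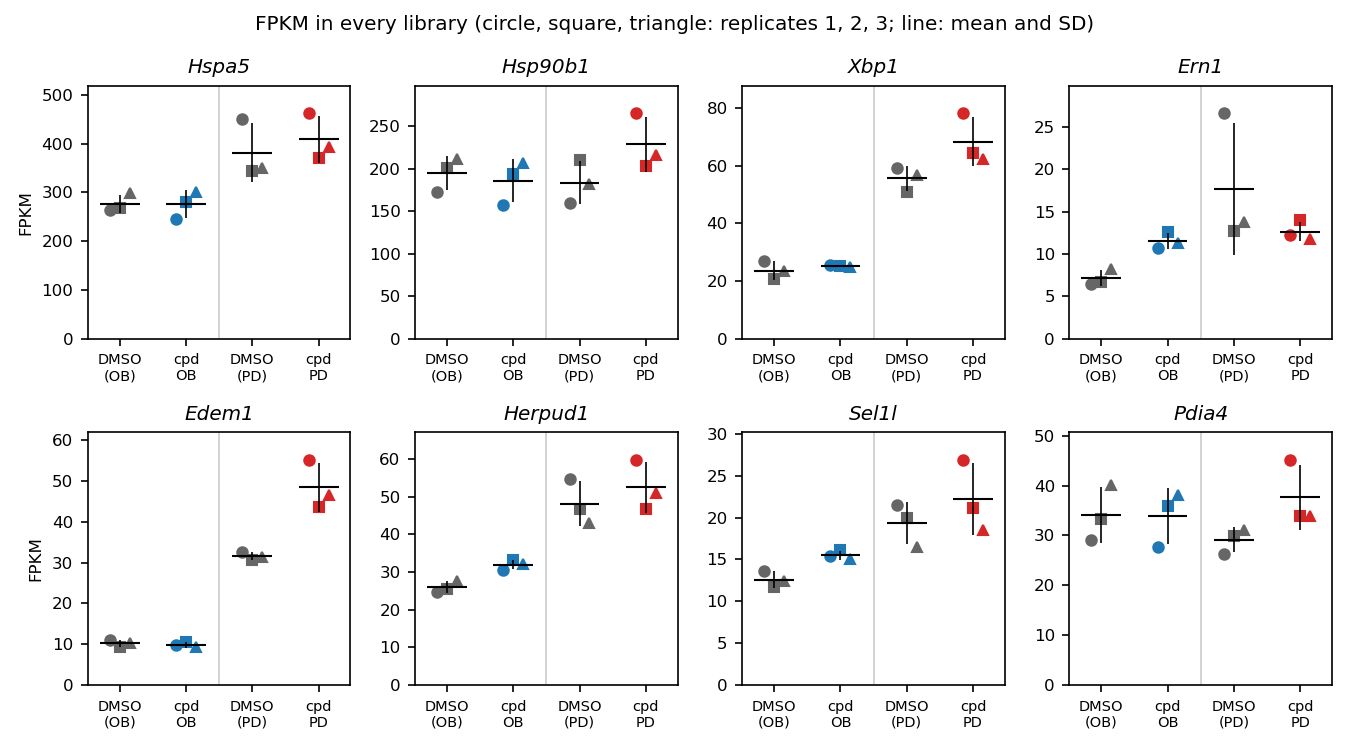
FPKM of 8 members in every library, with circles, squares and triangles for replicates 1, 2 and 3 and a line for the mean and SD of each group of 3; the grey line separates the sets. Ern1, Herpud1 and Sel1l do not overlap between DMSO and compound OB, and Edem1, Xbp1 and Pdia4 do not overlap between DMSO and compound PD.

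Members with and without the first form of the stress element overlapped in their values. Over the 9 with the first form, printed above for 6 of them, the median log2 fold change with compound PD was 0.10 (0.03 to 0.32), against 0.27 (−0.38 to 0.59) over the 17 members with a window and without that form, which include Dnajb11 and Herpud1 with the second form. Among the 6 highest values with compound PD, 3 belonged to members with the first form (Pdia6, Dnajc3 and Hsp90b1). With compound OB the medians were 0.01 over 8 tested members and 0.04 over 17. These are descriptions, and the differences were not tested.

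**Figure D4:**
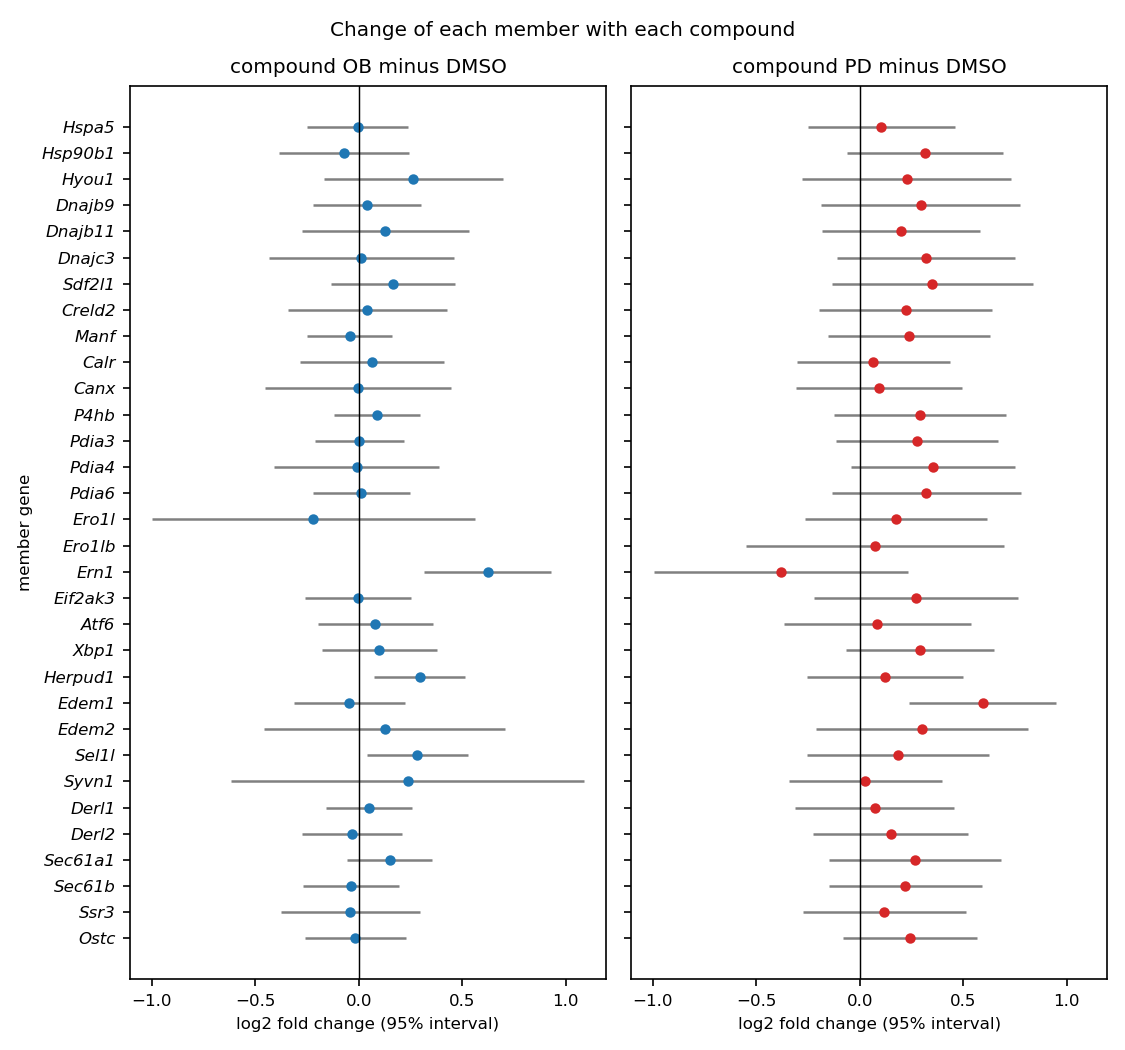
Log2 fold change of each member (point) with its 95% interval from limma (line), compound OB at left and compound PD at right. With compound OB the intervals of Ern1 (0.62), Herpud1 (0.29) and Sel1l (0.28) lie above 0 and the others cross it; with compound PD 31 of 32 points lie right of 0, and every interval but that of Edem1 crosses 0.

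Whether the effect of compound PD differed from that of compound OB was tested in 1 fit of all 12 libraries. Compound, dose and set go together, so a difference between compounds cannot be told apart from one between sets. No member of 32 was called (0 of 10346 genes called; 2 members at an unadjusted p under 0.05, against 7.37% of all genes, 5.69% higher and 1.68% lower with compound PD). The difference was above 0 for 26 members, and for 53% of all genes (median 0.18, against 0.02). Without replicate 1 of every group it was above 0 for 15 members, with a median of −0.04 against −0.12 for all genes. The 2 were Ern1, at 0.62 with compound OB and −0.38 with compound PD (95% interval of the difference −1.70 to −0.31; adjusted p = 0.440), and Edem1, with a difference of 0.64 (95% interval 0.23 to 1.05; adjusted p = 0.421). For Hspa5 the difference was 0.11 (95% interval −0.31 to 0.53).

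The 66 other genes listed for the pathway gave no call either. With compound OB 47 of 62 tested were above 0 (median log2 0.08), with 0 called and 5 higher at an unadjusted p under 0.05, beside 58.7% and 2.45% of all genes. With the replicate block 0 were called and 17 were higher at an unadjusted p under 0.05, 8 of them among 12 stress signalling genes, beside 9.83% of all genes; for the members the count with the block was 3 of 31. With compound PD 44 of 62 were above 0 (median 0.09), with 0 called, 2 higher and 2 lower at an unadjusted p under 0.05, beside 59.1%, 9.04% and 1.62% of all genes. Stress signalling genes, some of them of the PERK and ATF4 arm, had the highest median with compound OB (0.21, 11 of 12 above 0). With compound PD they had the lowest (−0.06, 4 of 12 above 0). The 12 tested were not the same genes in both sets. Ddit3 was tested in the OB set only, so the 12 of the PD set include a gene not tested in the OB set. Trib3, a pseudokinase induced through ATF4, measured 92.94, 91.34 and 99.30 with DMSO and 127.28, 121.56 and 124.19 with compound OB (log2 0.39, SE 0.08; adjusted p = 0.549). Chac1, an ATF4 target that degrades glutathione, measured 8.56, 9.59 and 11.57 against 16.47, 17.26 and 14.67 (log2 0.66, SE 0.14; adjusted p = 0.589). In both genes the arms did not overlap.

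Others among the smallest p-values of each comparison follow. The glucosidase Mogs was at 67.2 ± 3.49 in the DMSO libraries and 79.8 ± 6.36 in those with compound OB (SD, n = 3; log2 0.24, adjusted p = 1.00). With compound PD, the folding enzyme Fkbp2 was at 42.0 ± 4.31 with DMSO and 57.1 ± 5.53 with the compound (log2 0.44, adjusted p = 0.357), and the signal peptidase subunit Sec11c at 102 ± 12.5 and 139 ± 20.6 (log2 0.44, adjusted p = 0.393). Ppp1r15a, the phosphatase subunit that ends the translation block set by PERK, was at 219 ± 33.4 and 157 ± 30.2 (log2 −0.49, adjusted p = 0.373). The translocon partner Sec62 measured 51.49, 38.57 and 36.60 with DMSO and 29.35, 31.86 and 32.03 with the compound (log2 −0.42, adjusted p = 0.444). Ddit3, which repeats as a symbol in the PD set, was tested in the OB set only (log2 0.16, adjusted p = 1.00).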

How the data were processed

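The authors deposited 1 file per RNA library with FPKM values to 2 decimals, per the file headers. STAR and mm10 are named in the submitters' processing notes; versions, quantifier, gene annotation and strand use were not given in the sources used here. The 2 chromatin samples were not analysed here. In the OB set 379 entries with names split at a hyphen were left out, in each set 27 names turned into dates, and 6 (OB) and 185 (PD) entries that repeated a symbol. Sequencing depth is unknown: of ratios between low values of a gene, 9.78% (OB) and 11% (PD) were whole within 0.05, against 10% by chance, so no reads were recovered, and precision is the SD over 3 libraries.

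Compound and DMSO libraries of a set were compared with limma 3.58.1 (R 4.3.3, statmod 1.5.0), using a mean-variance trend and robust variances, on log2(FPKM + 1). Genes averaging under 1 FPKM over the libraries fitted were not tested, and the scale understates changes of genes at low levels. Two-sided p-values had Benjamini-Hochberg adjustment over the whole table, with a threshold of 0.05. The code was tested on simulated data. Tables were read with Python 3.11.15 and pandas 2.3.3. Promoter sequences are from RefSeq (GRCm38.p6).

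Same-numbered libraries deviated together in the OB set (correlations 0.831, 0.434, 0.652) and were taken as pairs for the fit with a replicate block. Replicates 2 and 3 also correlated across numbers there (0.413 and 0.327), so these 2 pairs are hardly told apart. In the PD set same-numbered libraries did not deviate together over all genes tested (−0.01, −0.03, −0.02). Some markers did follow the number there. The megakaryocyte sum was highest in replicate 1 with DMSO (4755, against 2434 and 2418) and with compound PD (7786, against 4431 and 4895). Members and lists were chosen with earlier results of these data known. Values in every library were given by rule for members called in either comparison, filled up to 12 by the smallest p, and always for Hspa5, Xbp1, Atf6, Ern1 and Eif2ak3 (15 in all) and, of the other pathway genes, for the 4 with the smallest p in each comparison, of which 1 is not reported here. Alternatives were a pseudocount of 0.1, no filter, a mean of at least 5 FPKM, median-ratio scaling, quantile normalization, no trend or robust moderation, the block, and leaving out each library.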

Additional observations from a re-analysis of the deposited data

How the results depend on the processing

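The count of members called was 0 in both comparisons under each single change of setting tried, the replicate block included, and leaving out any 1 library. Of alternatives chosen after seeing the data, the replicate block with median-ratio scaling called 1 member with compound OB (Ern1), which the block without replicate 1 or 2 also called. The block without replicate 1, 2 or 3 called 4, 1 and 0 members higher (9.64%, 0.701% and 0.0198% of all genes) and 1, 0 and 0 lower (1.64%, 0.75% and 0.00988%). Leaving out replicate 1 of both arms called 5 higher (15.4%) and 1 lower (2.43%); fits with 2 libraries an arm have few residual degrees of freedom.

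Counts over all genes moved more. With compound OB the count was 0 (373 genes at an unadjusted p under 0.05), 7 with the replicate block, 148 with the block and median-ratio scaling, 1781 without replicate 1 of both arms, 0 to 14 leaving out 1 library (14 without OB DMSO replicate 1) and 1128, 147 and 3 with the block and without replicate 1, 2 or 3. With compound PD it was 3 (1268 at an unadjusted p under 0.05), 0 with no filter, 2 with median-ratio scaling or quantile normalization, 0 without trend or robust moderation, 41 with the replicate block, 0 with the block and median-ratio scaling, 252 without replicate 1 of both arms, 0 to 167 leaving out 1 library (167 without PD DMSO replicate 1) and 206, 70 and 82 with the block and without replicate 1, 2 or 3. In the PD set same-numbered libraries did not deviate together over all genes, though megakaryocyte markers were highest in replicate 1 of both arms. For the difference it was 0, 3 with a pseudocount of 0.1, 3 with no filter, 6 without trend or robust moderation, 565 without replicate 1 of both arms, 0 to 15 leaving out 1 library and 0 to 40 with the block and without 1 replicate number. The causes were not tested.

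The members' median with compound PD ran from 0.10 to 0.30 leaving out 1 library. Ern1 with compound OB ran from log2 0.56 to 0.72 and Edem1 with compound PD from 0.50 to 0.66 leaving out 1 library. Depth is unknown, and 3 libraries a group limit the precision of every value.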
